A study of Mus musculus with 12 samples.

Results

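The P4 and P5 type ATPases are membrane proteins that use ATP to move a substrate across a bilayer. The genes described here were 9 members of these families, Atp11a, Atp11b, Atp8a1, Atp8a2 and Atp9a of the P4 type and Atp13a1, Atp13a2, Atp13a3 and Atp13a4 of the P5 type, and their probesets were found by the gene symbol in the table. The group was chosen on measured values of these arrays, since Atp11b and Atp13a4 had been seen to be lower in KIS-ko brains, and the values of both in that contrast are therefore given as a description with no test. Of the 17550 symbols in the table, 8 belonged to the group. No probeset used here carried the symbol, a synonym or a transcript accession of Atp13a3, which was not analysed.

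Whole brains of newborn female mice were measured, 6 wildtype (KIS +/+) and 6 KIS-ko (KIS -/-), with 1 brain and 1 array for each animal. Each of the 6 litters gave 1 brain of each genotype, so the brains form 6 pairs of littermates. KIS is the protein kinase encoded by Uhmk1, and both genotypes came from a line backcrossed to C57BL6/N. The question was which transcripts differ in the neonate brain when KIS is absent. Total RNA was hybridized to exon arrays, on which most exons are read by at least 1 probeset, and the deposited signal is linear. The gene value used below is the mean over a gene's probesets of log2(signal + 16), and a log2 difference is the KIS-ko value minus that of the wildtype littermate. Because the pseudocount of 16 is added, the change of dim probesets is understated on this scale.

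P4 type ATPases are phospholipid flippases. They move aminophospholipids such as phosphatidylserine, and in some members phosphatidylcholine, from the outer or luminal leaflet to the cytosolic leaflet, and most of them leave the endoplasmic reticulum only with a CDC50 subunit such as Tmem30a. The asymmetry that they keep is used in vesicle budding and endosomal recycling, and its loss on the cell surface marks dying cells. P5 type ATPases are polytopic relatives with other substrates. Atp13a1 resides in the endoplasmic reticulum, where it removes misplaced membrane helices, Atp13a2 exports polyamines from lysosomes and is mutated in a form of parkinsonism, and Atp13a4 is a less studied member of the Atp13a2 branch.

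The sequences around the annotated starts of both lower members are shown to let their promoters be compared. They are RefSeq windows of 300 bases on assembly GRCm38.p6, running from before an annotated start into the transcript, and are written 5′ to 3′ on the strand of the gene. Capitals mark matches, on either strand, to the GC box GGGCGG, the CCAAT box CCAAT, the TATA box TATAAA and the E box CACGTG, where overlapping matches of 1 motif were each counted. Of the members, 7 had at least 1 such window. Atp11b had 1 window and Atp13a4 had 2.
Atp11b, chr3:35753813-35754112, strand +: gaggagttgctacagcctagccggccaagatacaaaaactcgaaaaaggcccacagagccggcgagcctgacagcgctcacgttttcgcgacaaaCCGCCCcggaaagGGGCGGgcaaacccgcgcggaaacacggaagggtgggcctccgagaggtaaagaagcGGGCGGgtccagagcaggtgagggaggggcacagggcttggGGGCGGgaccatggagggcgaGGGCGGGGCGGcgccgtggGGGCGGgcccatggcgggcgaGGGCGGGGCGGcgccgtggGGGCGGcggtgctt
Atp13a4, chr16:29541434-29541733, strand -: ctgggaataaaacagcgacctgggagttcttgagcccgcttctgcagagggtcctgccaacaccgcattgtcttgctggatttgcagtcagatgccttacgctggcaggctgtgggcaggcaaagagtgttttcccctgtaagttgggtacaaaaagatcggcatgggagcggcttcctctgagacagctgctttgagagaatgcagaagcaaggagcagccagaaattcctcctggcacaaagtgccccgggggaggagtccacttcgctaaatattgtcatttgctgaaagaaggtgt
Atp13a4, chr16:29544815-29545114, strand -: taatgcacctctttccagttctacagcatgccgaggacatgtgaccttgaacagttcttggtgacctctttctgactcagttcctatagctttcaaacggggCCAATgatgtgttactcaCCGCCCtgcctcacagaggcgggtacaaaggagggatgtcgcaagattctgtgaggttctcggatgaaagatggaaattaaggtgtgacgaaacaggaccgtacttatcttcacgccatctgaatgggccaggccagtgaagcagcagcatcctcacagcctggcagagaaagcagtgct

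The Atp11b window was 70.7% G or C and held 33 CpG dinucleotides, more than 91.4% of the 32851 windows of this length, whose median was 7. It held 10 matches to the GC box and none to the other motifs. The Atp13a4 windows were 53.0% and 50.7% G or C, with 8 and 9 CpG, near that median. The first held no match, and the second held 1 GC box and 1 CCAAT box. Over all windows, 35.7% held a GC box, 37.4% a CCAAT box, 13.6% a TATA box and 7.15% an E box. A match is a description of the letters in the window and not a mapped binding site. The positions of the array probesets are given below as the table lists them. No genome build is named for them in the sources used here, so they cannot be set beside the coordinates of these windows.

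The targeted gene was checked first. Uhmk1 had a mean value of 10.97 ± 0.057 (SD, n = 6) in wildtype and 8.85 ± 0.148 in KIS-ko brains, a log2 difference of -2.11 ± 0.068 (SE), and was lower in all 6 litters (limma, adjusted p = 2.9e-07). It was the 1 gene called at an adjusted p under 0.05 of the 17279 tested, which is 0.00579%. The median signal of an array was between 460 and 526. The array median was lower in the KIS-ko brain of 5 of 6 litters, with log2 differences in litters 1 to 6 of -0.07, -0.13, -0.03, 0.10, -0.04 and -0.17, so litter 4 ran the other way. The gene values were lower in KIS-ko for 69.8% of all genes on the deposited scale and for 38.5% after each array was centred on its median. Directions of small differences below are therefore relative to the deposited scale unless centring is named.

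On the deposited scale the mean value was lower in KIS-ko for 8 of the 8 measured members, against 69.8% of all genes. After centring, with 38.5% of all genes lower, and likewise after a repeated quantile normalization, with 48.6%, it was lower for 4 of them, and Atp8a1, Atp8a2, Atp13a1 and Atp13a2 were slightly higher. The median log2 difference of the members was -0.04, equal at this precision to that of all genes, -0.04. The value was lower in at least 5 of 6 litters for 5 members, Atp11b, Atp11a, Atp9a, Atp13a4 and Atp13a1, against 22.5% of all genes. After centring this held for 1 member, Atp13a4, and the share of all genes was not computed on that scale. These counts include both members that were chosen for being lower. For the other 6 members no difference reached an unadjusted p under 0.05 (background 6.16% of genes), and the lowest adjusted p by limma was 0.685. Without litter 4, Atp11a did reach that unadjusted p, with a log2 difference of -0.13 and an adjusted p of 0.177, and 4017 genes then did so in place of 1065.

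**Figure D1:**
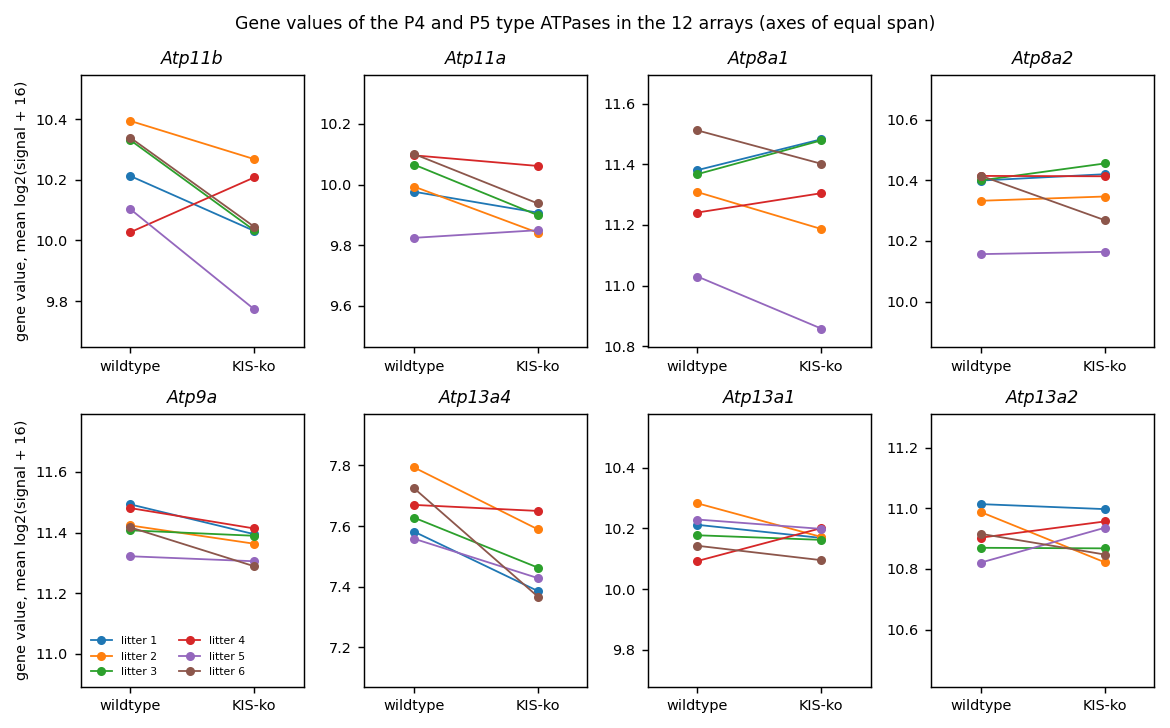
Gene value (mean log2(signal + 16), vertical axes of equal span) of the 8 measured members in wildtype and KIS-ko brains, with a line joining the littermates of each of 6 litters. The lines of Atp13a4 slope down in 6 of 6 litters and those of Atp11b in 5 of 6, while Atp8a2 is nearly level apart from litter 6.

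Atp11b, a flippase of endosomes and the trans-Golgi, had wildtype values from 10.03 to 10.39 with a median of 10.27, and KIS-ko values from 9.77 to 10.27 with a median of 10.04. The genotypes overlapped widely, and 1 KIS-ko array, that of litter 5, lay below the lowest wildtype array. The log2 differences within litters 1 to 6 were -0.18, -0.13, -0.30, 0.18, -0.33 and -0.29. Litter 4 was the exception, and its wildtype brain had the lowest wildtype value. The mean difference was -0.17 ± 0.069 (SE), with an SD over litters of 0.191. Without litter 4 the mean was -0.25. Centred on the array medians, the differences within litters were -0.11, 0.01, -0.27, 0.08, -0.29 and -0.13, and the mean was -0.12, lower in 4 of 6 litters.

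Atp13a4 had wildtype values from 7.56 to 7.79 with a median of 7.65, and KIS-ko values from 7.37 to 7.65 with a median of 7.45. The genotypes overlapped less here, with 4 KIS-ko arrays below the lowest wildtype array. The log2 differences within litters 1 to 6 were -0.20, -0.20, -0.16, -0.02, -0.13 and -0.36. Every litter was lower in KIS-ko, with litter 4 near 0 and litter 6 farthest from it. The mean difference was -0.18 ± 0.053 (SE), with an SD over litters of 0.110. After centring, the litters lay between -0.20 and -0.08, again lower in 6 of 6, with a mean of -0.13 ± 0.044 (SD).

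These were dim values. The table holds 5222 intron controls, and 95 percent of them had a mean signal of 713 or less. None of the 29 kept probesets of Atp13a4 exceeded this level, and 23 exceeded the median of those controls, 114. The median signal of its probesets was 175. Atp11b was brighter, with 29 of its 35 kept probesets above that level and a median signal of 1184. Signals of different probesets are not comparable as amounts of RNA, and the controls serve only to show how near a probeset lay to background.

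The fold change of the methods, which averages the probeset fold changes and gives more weight to those with less relative spread, was computed again here. It was 0.905 ± 0.103 (SD over litters, n = 6) for Atp11b and 0.905 ± 0.049 for Atp13a4. The means were equal to this precision with all 6 litters, but the spread between litters was wider for Atp11b, and without litter 4 the fold changes were 0.853 and 0.884. The fold change was 0.948 ± 0.044 for Atp11a, 0.958 ± 0.027 for Atp9a, 0.991 ± 0.053 for Atp13a2, 0.994 ± 0.025 for Atp13a1, 0.996 ± 0.073 for Atp8a1 and 1.00 ± 0.034 for Atp8a2. It was below 1 in 7 of 8 members, against 56.2% of all genes on the deposited scale. After centring or a repeated quantile normalization it was below 1 in 4 of 8, and the share of all genes was not computed there. These counts include Atp11b and Atp13a4, both chosen for being lower. The members that differed by at least 6% were Atp11b and Atp13a4, while 26.4% of all genes differed by that much.

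Atp11a is the closest paralog of Atp11b in the group and acts mainly at the plasma membrane. Its wildtype values lay between 9.82 and 10.10 with a median of 10.03, and its KIS-ko values between 9.84 and 10.06 with a median of 9.90. No KIS-ko array fell below the lowest wildtype array, which was that of litter 5. The log2 difference was -0.09 ± 0.048 (SE), lower in 5 of 6 litters, and did not pass the test (limma, adjusted p = 0.685). After centring the difference was -0.04 with 3 of 6 litters lower, and with the median over probesets it was -0.04. The difference of Atp11b minus that of Atp11a within a litter was -0.08 ± 0.190 (SD, n = 6) and below 0 in 4 litters, given without a test.

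Atp9a, a flippase that works without a CDC50 subunit and acts in endosomal recycling, had wildtype values between 11.32 and 11.49 with a median of 11.42, and KIS-ko values between 11.29 and 11.41 with a median of 11.38. The KIS-ko arrays of litters 5 and 6 lay below the lowest wildtype array. Every litter was lower in KIS-ko, from -0.13 to -0.02, and the mean of -0.06 ± 0.044 (SE) did not pass the test (adjusted p = 0.686 by limma). After centring, the mean was -0.01 with 2 of 6 litters lower. Its relative Atp9b had a log2 difference of -0.08 ± 0.049 (SE, adjusted p = 0.685).

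Atp8a1 and Atp8a2 are the aminophospholipid flippases most studied in neurons, and loss of Atp8a2 causes axonal degeneration in mice. Atp8a1 had wildtype values between 11.03 and 11.51 with a median of 11.34, and KIS-ko values between 10.86 and 11.48 with a median of 11.35. The genotypes spanned much the same range, and the lowest array of each was that of litter 5. The log2 difference of Atp8a1 was -0.02 ± 0.056 (SE, adjusted p = 0.891), and it was lower in 3 of 6 litters. Atp8a2 had wildtype values between 10.16 and 10.41 with a median of 10.40, and KIS-ko values between 10.16 and 10.46 with a median of 10.38. In both genotypes litter 5 was again the lowest. The log2 difference of Atp8a2 was -0.01 ± 0.047 (SE, adjusted p = 0.95), lower in 2 of 6 litters.

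Atp13a2 and Atp13a1 had the smallest differences among the P5 genes measured. Atp13a2 had wildtype values between 10.82 and 11.01 with a median of 10.91, and KIS-ko values between 10.82 and 10.997 with a median of 10.90. The genotypes overlapped over nearly the whole range. Its log2 difference was -0.01 ± 0.051 (SE, adjusted p = 0.922), lower in 4 of 6 litters. Atp13a1 had wildtype values between 10.09 and 10.28 with a median of 10.19, and KIS-ko values between 10.10 and 10.20 with a median of 10.17. Its log2 difference was -0.02 ± 0.047 (SE, adjusted p = 0.855), lower in 5 of 6 litters on the deposited scale, while after centring it was 0.03 and lower in 0 of 6. Within litters, Atp13a4 lay below Atp13a2 by a mean log2 difference of -0.16 ± 0.096 (SD, n = 6) and below Atp13a1 by -0.16 ± 0.080, in 6 of 6 litters each. Since Atp13a4 was chosen for its low values, these distances are given without a test.

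Atp13a5 is the neighbour of Atp13a4 on chromosome 16 and its close paralog. It had a log2 difference of -0.12 ± 0.060 (SE), lower in 4 of 6 litters and in 30 of 36 probesets, and did not pass the test (limma, adjusted p = 0.685). Atp13a4 minus Atp13a5 was -0.06 ± 0.187 (SD, n = 6) and below 0 in 3 litters, given without a test. By the positions of the table they lie 17447 bases apart, and Opa1, a mitochondrial fusion GTPase 38134 bases away on the other side, had a log2 difference of -0.06 ± 0.057 (SE, adjusted p = 0.729). Next to Atp11b, Dcun1d1, a cullin neddylation factor 36767 bases away, had a log2 difference of -0.08 ± 0.071 (SE, adjusted p = 0.707). The neighbours were looked up after the values of the members had been seen.

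**Figure D2:**
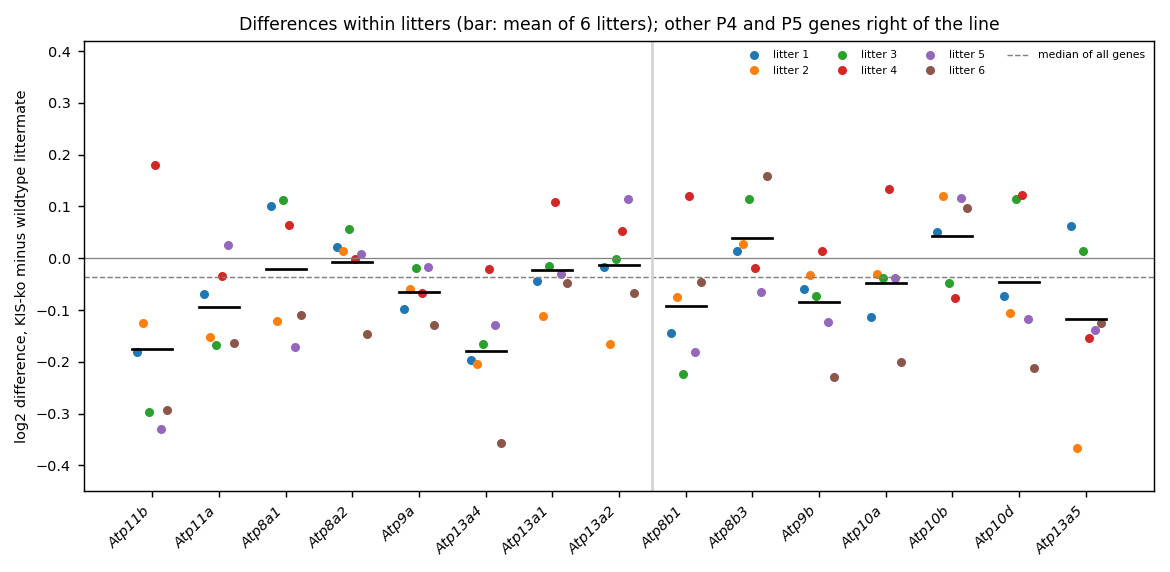
Log2 difference between KIS-ko and wildtype littermates (vertical axis) for the 8 members and, right of the line, 7 other P4 and P5 genes, with 1 point for each of 6 litters, a bar at the mean and a dashed line at the median of all genes. Litter 4 lies above the other litters for Atp11b, and the means of Atp11b and Atp13a4, at -0.17 and -0.18, are the lowest of the 15.

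Of 10 other P4 and P5 type genes that were listed, 7 were measured, since no probeset carried the symbols Atp8b2, Atp8b4 and Atp8b5. The log2 difference was negative for 5 of them, with a median of -0.05, and none reached an unadjusted p under 0.05 by limma. Atp8b1, the flippase mutated in a cholestasis of the liver, had -0.09 ± 0.055 (SE), and Atp10a and Atp10d had -0.05 each. The difference was 0.04 for Atp8b3 and for Atp10b. Most of these genes were dim in newborn brain, and 8 of the 15 P4 and P5 genes described here had a median probeset signal under the same level of 713. The CDC50 subunit Tmem30a had a log2 difference of -0.05 ± 0.052 (SE, adjusted p = 0.733), and Tmem30b, read by 3 dim probesets, had 0.06. No probeset carried the symbol Tmem30c.

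Probeset by probeset, the members had 268 probesets, of which 262 were kept and 6 were rejected because their standard deviation in wildtype or in KIS-ko exceeded 0.4 of the mean. The value was lower in KIS-ko for 201 of the 262, or 76.7%, against 66.2% of all probesets kept. After centring it was lower for 129 of the 262, against 43.6% of all probesets. Of those 129, 33 were of Atp11b and 25 of Atp13a4, both chosen for being lower. The share was then under 43.6% in Atp13a1, Atp8a1, Atp13a2 and Atp8a2 and over it in Atp11a and Atp9a. On the deposited scale without Atp11b and Atp13a4, 140 of 198 probesets were lower, or 70.7%. Of these 198, 4 reached an unadjusted p under 0.05, or 2.02%, against a background of 6.63%, and none passed the adjusted threshold, which 10 probesets of the whole table did (0.00487%). Probesets of 1 gene read the same transcripts on the same arrays and are not independent.

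All 35 kept probesets of Atp11b were lower in KIS-ko, with log2 differences from -0.36 to -0.05 and a median of -0.18. Among the 1524 genes with at least 25 kept probesets, every kept probeset was lower in 23, or 1.51%. As Atp11b was chosen for this direction, nothing is read from that share. After centring, 33 of the 35 were lower (43.6% of all probesets), and without litter 6 it was 34. The probesets lay on chromosome 3 of the plus strand between 35653306 and 35755182. The farthest from 0, at 35734164 to 35734219, had a mean signal of 386 ± 74.7 (SD, n = 6) in wildtype and 296 ± 45.1 in KIS-ko brains and was lower in 5 of 6 litters. The brightest, at 35653306 to 35653332 at the 5′ end, had 4096 ± 176 in wildtype and 3943 ± 224 in KIS-ko, a log2 difference of -0.06. The difference was thus spread along the gene and not confined to a stretch of exons. The 11 probesets nearest the 5′ end had a median of -0.19 and the 11 nearest the 3′ end -0.14, and the 29 bright probesets had a median of -0.18 beside -0.21 for the 6 dim ones. The 2 rejected probesets had log2 differences of -0.29 and 0.10, the latter at a mean signal of 28.1.

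For Atp13a4, 26 of 29 kept probesets were lower, from -0.46 to 0.12 with a median of -0.19, and after centring 25 were. They lay on chromosome 16 of the minus strand between 29396253 and 29541449. The farthest from 0, at 29475663 to 29475714, had a mean signal of 91.0 ± 32.1 (SD, n = 6) in wildtype and 60.9 ± 18.7 in KIS-ko, under the median of the intron controls. Among the 3 that were not lower were the 2 brightest of the gene, at mean signals of 571 and 652. The first of these, at the 5′ end from 29541409 to 29541449, had 556 ± 70.9 in wildtype and 586 ± 57.6 in KIS-ko, and the second, at 29409793 to 29409912, had 647 ± 89.9 and 657 ± 71.3. The third, at 29403868 to 29403911, had 211 ± 39.1 and 227 ± 19.1. The 9 probesets nearest the 5′ end had a median of -0.19 and the 9 nearest the 3′ end -0.14. All 3 rejected probesets were lower, from -0.22 to -0.21.

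The paralogs differed in how many of their probesets were lower. For Atp11a it was 27 of 29 and for Atp9a 30 of 33, while it was 22 of 31 for Atp13a1, 24 of 37 for Atp8a1, 20 of 33 for Atp13a2 and 17 of 35 for Atp8a2. After centring, when 43.6% of all probesets were lower, these counts were 20 for Atp11a, 22 for Atp9a, 7 for Atp13a1, 8 for Atp8a1, 9 for Atp13a2 and 5 for Atp8a2. On the deposited scale the medians of their probesets were -0.08 for Atp11a, -0.07 for Atp9a, -0.02 for Atp13a1, -0.01 for Atp8a1 and for Atp13a2, and 0.00 for Atp8a2. Single probesets with an unadjusted p under 0.05 by limma were the most 5′ of Atp11a on chromosome 8 at 12757314 to 12757342 (-0.36 ± 0.130, SE, adjusted p = 0.751) and that at 12851040 to 12851164 (-0.17 ± 0.068). The others were that of Atp9a on chromosome 2 at 168536367 to 168536429 (-0.21 ± 0.076) and that of Atp13a2 on chromosome 4 at 140561969 to 140562065 (-0.14 ± 0.060), which was lower in 6 of 6 litters. None had an adjusted p below 0.751.

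**Figure D3:**
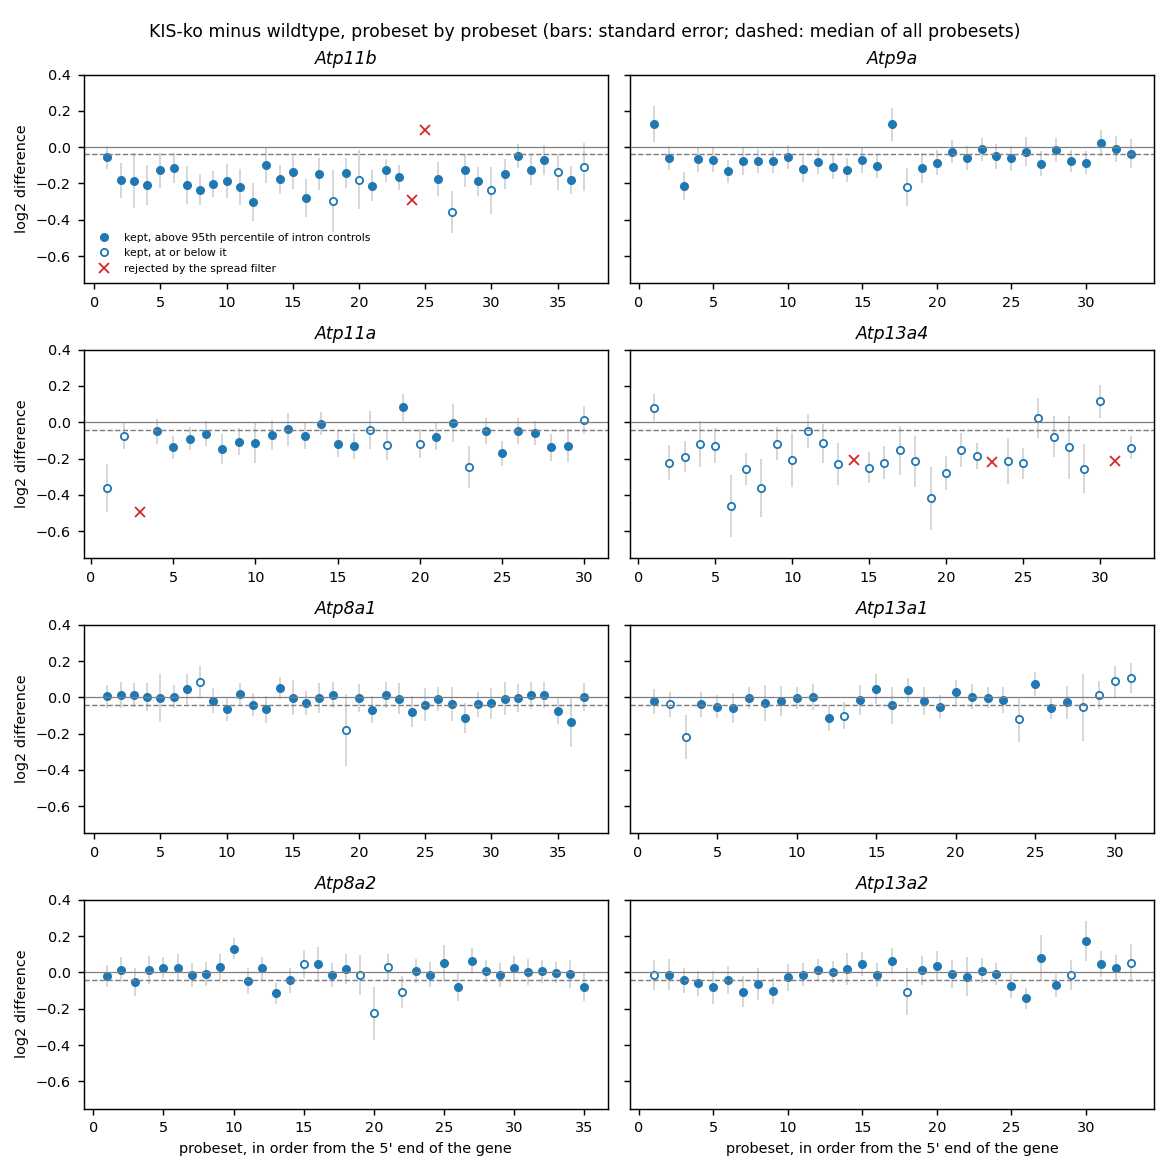
Log2 difference (KIS-ko minus wildtype, with the standard error) of each probeset of the 8 members, ordered from the 5′ end of the gene, where filled points lie above a mean signal of 713, open points at or below it, and crosses were rejected. The points of Atp11b lie below 0 along the whole gene, those of Atp13a4 are all open with 3 above 0, and those of Atp8a1, Atp8a2, Atp13a1 and Atp13a2 scatter about 0.

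Variation between litters was tested with the F test of limma for litter in the 6 members that were not chosen by their values. Atp8a1 had the clearest litter effect (F = 8.05, adjusted p = 0.193). Its lowest values were the wildtype brain of litter 5 at 11.03 and its KIS-ko littermate at 10.86. Without litter 5 the F for Atp8a1 was 2.05. The other 5 had adjusted p values from 0.477 for Atp8a2 to 0.947 for Atp13a1. Thus Atp8a1, 1 of these 6, reached an unadjusted p under 0.05, against 11.3% of all genes, and none passed the adjusted threshold, as for all genes (0.0%). Atp8a1 did pass it with the bright probesets alone (adjusted p = 0.0495) and with trend and robust moderation (adjusted p = 0.0295), where 281 and 168 genes were called. Anything else that the arrays of a litter had in common cannot be told apart from the litter.

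The genes whose values were most like those of Atp11b over the 12 centred arrays were Mcts1 (r = 0.940), a translation reinitiation factor, Cacna2d1 (r = 0.909), a subunit of voltage-gated calcium channels, and Esco2 (r = 0.908), a cohesin acetyltransferase. Their log2 differences were -0.16, -0.11 and -0.12. For Atp13a4 they were Iars2 (r = 0.914), the mitochondrial isoleucyl-tRNA synthetase, Phka1 (r = 0.907), a subunit of phosphorylase kinase, and Tom1l1 (r = 0.895), an endosomal adaptor, with log2 differences of -0.24, -0.15 and -0.15. Among the members themselves, Atp11b and Atp13a4 had r = 0.604, Atp11b and Atp11a r = 0.047, and Atp11b and Atp13a2 r = -0.736. On the deposited scale the same pairs had r = 0.754, 0.474 and 0.060, so the last was not negative there. Atp11b and Atp13a4 were both chosen for being lower in KIS-ko, so their r is in part set by that choice. These correlations over 12 arrays are a description, since the arrays share genotype, litter and the scaling by their medians, and the genes named were the 3 highest of all those measured.

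Genes that act beside these ATPases were taken from lists, and counts are over the listed genes that were measured. Apart from Abcg4, at the end of a range, the genes named from a list were picked for their low p by limma. Of all genes, 6.16% reached an unadjusted p under 0.05, and the counts of listed genes at that p are to be read beside this share. Of 15 scramblases, which let phospholipids cross the bilayer in both directions, 10 had a negative difference, and 2 reached an unadjusted p under 0.05, Ano4 (-0.16 ± 0.070, SE) and Tmem41b (-0.16 ± 0.067). All 11 lipid exporting ABC transporters were lower, from -0.08 for Abca1, Abcb1a and Abcb1b to -0.01 for Abcg4, and none reached that p. Of 12 partners of flippases in membrane trafficking, 11 had a negative difference and none reached that p. Dopey1, a relative of the yeast protein that binds the flippase Neo1, had -0.14 ± 0.081 (SE). All 10 genes of phosphatidylserine and phospholipid synthesis and transfer had negative differences, with a median of -0.06 and no p under 0.05. The background for a negative difference was 69.8% of genes on the deposited scale and 38.5% after centring.

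Of 14 polyamine genes, 12 had a negative difference, and Amd1, the decarboxylase that supplies the aminopropyl donor, had -0.15 ± 0.062 (SE) at an unadjusted p under 0.05. All 12 lysosomal and parkinsonism genes on the list of Atp13a2 had negative differences with a median of -0.07, and none reached an unadjusted p under 0.05. Of 16 genes of membrane protein insertion at the endoplasmic reticulum, listed beside Atp13a1, 6 were measured, with none of the listed EMC subunits among them, and 5 of the 6 had a negative difference. Get4, part of the tail-anchored protein pathway, had -0.16 ± 0.051 (SE) at an unadjusted p under 0.05 and was lower in 6 of 6 litters. Of 14 other P type ATPases, the pumps for sodium, calcium and copper among them, 13 had a negative difference with a median of -0.04 and none reached that p. No gene of any of these lists passed the adjusted threshold, and the lowest adjusted p by limma was 0.685.

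The labelled tissue was checked by markers of neural and other cells. Neuronal Stmn2, Tubb3, Snap25 and Syt1 were bright in all arrays. Of the liver and muscle markers, Alb, Apoa1 and Ckm had median probeset signals of 131, 224 and 317, and Myh1 and Acta1, of skeletal muscle, had 811 and 998, above the level of 713. In a whole brain, fewer cells of a type and less RNA in each cell cannot be told apart. All 6 astrocyte and radial glia markers had negative differences, with a median of -0.09, and their summed signal lay between 19064 and 21674 in wildtype and between 17868 and 20321 in KIS-ko brains. Gfap, the astrocyte intermediate filament, had -0.27 ± 0.081 (SE, adjusted p = 0.685). Of 4 neuronal markers, 3 had negative differences, with a median of -0.04. The medians of the other lists were -0.09 for meninges (4 of 6 negative), -0.07 for endothelium (5 of 6), -0.07 for ependyma (2 of 2), -0.05 for the oligodendrocyte lineage (5 of 6), -0.03 for microglia (4 of 5), -0.02 for choroid plexus (4 of 6) and for pericytes (3 of 4), and 0.02 for erythroid cells (1 of 5). Of all genes, 69.8% had a negative difference on the deposited scale and 38.5% after centring. Among all marker lists, Gfap and the pericyte gene Rgs5, at -0.16 ± 0.066 (SE), reached an unadjusted p under 0.05 by limma, which 6.16% of all genes did. The part of any of these cell types in the low values of Atp11b and Atp13a4 was not tested.

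**Figure D4:**
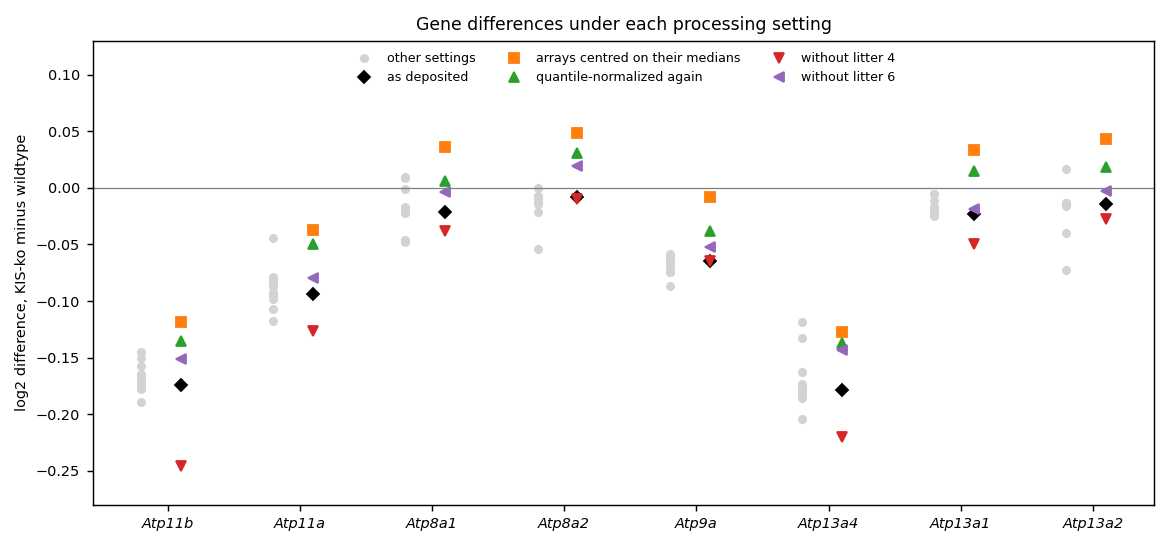
Log2 difference (KIS-ko minus wildtype) of each of the 8 members on the deposited scale, after centring, after a repeated quantile normalization, without litter 4, without litter 6 and under the other processing settings. Atp11b stays between -0.25 and -0.12 and Atp13a4 between -0.22 and -0.12, while the points of Atp8a1, Atp8a2, Atp13a1 and Atp13a2 fall on both sides of 0.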

How the data were processed

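The arrays were Affymetrix Mouse Exon 1.0 ST, 1 for each of 12 newborn brains. According to the labels and methods, the authors used the Affymetrix Expression Console with quantile normalization at the exon level and PLIER, and the deposited values are linear PLIER intensity per probeset and array. Software versions are not given in the sources used here. No scanner files were analysed here.

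Of 229581 probesets, the 221417 main ones with a symbol were used. A probeset was dropped where the SD of its intensity exceeded 0.4 of the mean in wildtype or KIS-ko, as in the methods, which left 205469 probesets of 17279 genes, a median of 10 per gene. Gene values, the mean log2(intensity + 16) over probesets, and single probesets went into linear models (limma 3.58.1, R 4.3.3) with genotype and litter as terms. P-values were adjusted by Benjamini-Hochberg over the whole table, at a threshold of 0.05. Python 3.11.15, numpy 2.4.6 and pandas 2.3.3 gave the fold change of the methods, and matplotlib 3.10.9 the plots. The scripts were tested on simulated data. No 2 arrays were identical, and pairs of arrays correlated at 0.978 to 0.992. Precision is limited by the number of arrays and, in dim probesets, by background. With litter as a term, the p-values for genotype rest on how the difference between littermates varied over 6 litters. Those for litter set the differences between litters against the same residual spread.

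The pairing by litter comes from the labels. After the genotype means were taken off, littermates correlated at -0.093 to 0.325, above 0.1 in 3 of 6 pairs. Alternatives were a model with genotype alone, a pseudocount of 1 or 64, other limits on spread and brightness, centred or quantile-normalized arrays, the median over probesets, probesets matching 1 place, trend and robust moderation, and each litter left out. The members, the gene lists and the rule for named genes were chosen with earlier results of these data known. The rule took Uhmk1, all measured members, other P4 and P5 genes and CDC50 subunits. It added up to 3 genes of lowest p by limma from each other list, and the 3 genes most like each lower member. Markers, neighbours and Abcg4, at the end of a range, are named besides. One listed gene is not reported here. RefSeq windows were matched by symbol.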

Additional observations from a re-analysis of the deposited data

Results flagged for a closer look

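Of 24 searches for a value far from the rest of its group of 6, over the wildtype values, the KIS-ko values and the litter differences of the 8 members, 3 found one. The criterion, Dixon's at the 95% level, is met by chance in about 5% of such searches. The wildtype brain of litter 5 had an Atp8a2 value of 10.16, below the next lowest wildtype value of 10.33. Its KIS-ko littermate was at the same 10.16. The log2 difference of Atp8a2 in litter 6 was -0.15, while the next lowest litter was at 0.00. After centring it was 0.02, and litter 4 was then the lowest at -0.10. The KIS-ko brain of litter 6 had an Atp13a1 value of 10.10, below the next lowest KIS-ko value of 10.16. Litter 6 was also the litter with the lowest array median in KIS-ko relative to wildtype. Causes of these values were not tested.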

How the results depend on the processing

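The log2 difference of Atp11b, chosen for being low, was negative under all 14 alternatives that moved its value, between -0.25 without litter 4 and -0.12 after centring, and that of Atp13a4, chosen likewise, under all 15, between -0.22 and -0.12, with no probeset left to give a value above the 95th percentile of the intron controls. Atp11a, from -0.13 to -0.04, and Atp9a, from -0.09 to -0.01, were negative under all 15 and 14 that moved theirs. A change of block or moderation moves the error and not the difference. Members with a lower mean numbered 8, and 4 after centring or repeated quantile normalization, where Atp8a1 was at 0.036 and 0.0062, Atp8a2 at 0.0485 and 0.0304, Atp13a1 at 0.0331 and 0.0153, and Atp13a2 at 0.043 and 0.0188. With the median over probesets Atp8a1 was at 0.0095, Atp8a2 at -0.0537, Atp13a1 at -0.0051 and Atp13a2 at -0.0724. Leaving out 1 litter gave -0.0476 to 0.00903 for Atp8a1, -0.021 to 0.0194 for Atp8a2 and -0.0397 to 0.0163 for Atp13a2. For Atp13a1 it gave -0.0495 to -0.0057. Member probesets lower fell from 201 to 129 after centring. Members with a fold change of the methods below 1 fell from 7 to 4 after centring or quantile normalization, and ranged from 4 to 8 with a litter left out, the lowest without litter 2.

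Genes called numbered 1, 2 with a pseudocount of 64, without the spread filter or with trend and robust moderation, 5 with the limit at 0.2 or probesets above the 95th percentile, and 1 to 4 with a litter left out (4 without litter 1, 2 without litter 3). None of the 6 tested members was called in any of these fits. Without litter 4, 4017 genes reached an unadjusted p under 0.05 by limma beside 1065 with all litters. With another litter left out they numbered from 579 (without litter 6) to 1178 (without litter 5). Probesets at that p numbered 13621 with all litters and 33494 without litter 4. With another litter left out they numbered from 8015 (without litter 6) to 14588 (without litter 5). Probesets called numbered 10, and 26 in the fit with no replicate block, 23 with a pseudocount of 64, 19 with the limit at 0.2, 16 above the intron control median, 30 above the 95th percentile, 16 after centring and 91 with trend and robust moderation. Genes called for litter numbered 0 (1955 at an unadjusted p under 0.05), and 29 with a pseudocount of 64, 1 above the intron control median, 281 above the 95th percentile and 168 with trend and robust moderation. Under the last pair of settings 1 member was called, Atp8a1 (adjusted p = 0.0495 and 0.0295). The cause of these changes was not tested. The median over probesets does not apply to single probesets.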
